A study of Mus musculus with 46 samples.

Results

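Chromatin at 9 of the 22238 protein-coding genes of GENCODE vM1 was followed through the conversion of mouse embryonic fibroblasts (MEFs) to other cells. The genes were chosen by name, as surface proteins used to sort or recognise cells and as the fucosyltransferases that build the SSEA-1 antigen: Thy1, Fut4, Fut9, Cd44, Icam1, Cd34, Ly6a, Pdgfra and Pdgfrb. For each gene, all peaks that touched a window from 1 kb before the gene start to 1 kb after the gene end were added up. The score of a peak was its normalised tag count, in tags per 10 M, so a sum grows with both the height and the breadth of the peaks, and the covered length is given in kb.

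The chromatin features were the histone variant H3.3 (16 libraries), H3 trimethylated at lysine 4 (H3K4me3, 7 libraries) and H3 trimethylated at lysine 36 (H3K36me3, 7 libraries), each measured by ChIP-Seq. D0 were MEFs from mid-gestation embryos that carried an Oct4 IRES-EGFP allele, and D3 were unsorted cells 3 days after retroviral Oct4, Sox2, Klf4 and c-Myc (OSKM) in feeder-free medium. Cells sorted with an antibody to Thy-1 were D6T+, D6T-, D9T+ and D9T- (days 6 and 9 of OSKM), and cells sorted on SSEA-1 were D12S-, D12S+, D16S- and D16S+ (days 12 and 16 of OSKM). The study treated Thy-1- and SSEA-1+ cells as the fractions undergoing successful reprogramming. iPSCs carried the same 4 retroviruses, and ESD3 was the embryonic stem cell line D3, which did not. Transdifferentiation libraries were MEF (day 0), D4 (day 4 of retroviral Scl, Lmo2, Runx1 and Bmi1, SLBR) and the fully converted fractions sorted as cKit- and cKit+. According to the study's methods, the fibroblasts for SLBR had first been depleted of cells stained for Sca1, the product of Ly6a, for c-kit and for other blood markers, and the transduced cells were grown on inactivated OP9 stromal cells, which are themselves mouse cells. H3K4me3 and H3K36me3 were profiled in D0, D3, D6T-, D9T-, D12S+, D16S+ and iPSCs. Every group had 1 library, so no difference below has a replicate check and no test across libraries was made. Intervals are 95% Poisson intervals of the tags in the peaks and cover counting error only.

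Thy-1 is a small glycolipid-anchored protein of fibroblasts, neurons and T cells, and its loss is an early step in the conversion of fibroblasts to iPSCs. SSEA-1 is not a protein but the carbohydrate Lewis X, made when an alpha-1,3-fucosyltransferase such as Fut4 or Fut9 adds fucose to a lactosamine chain. H3.3 is a histone H3 variant placed into chromatin outside replication and is known to mark active gene bodies, promoters and enhancers. H3K4me3 marks active or poised gene starts, and H3K36me3 marks the bodies of transcribed genes.

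The libraries held 13.2 to 91.8 M tags, and the H3.3 lists held 25637 (cKit-) to 108179 (D4) peaks. H3.3 peaks lay in the windows of 31.9% (cKit-) to 72.1% (D4) of all genes. The SSEA-1+ lists were short, with 45922 peaks in D12S+ and 34062 in D16S+ against 87536 in D12S- and 65454 in D16S-, so a lower sum in an SSEA-1+ library stands beside a lower sum at many genes. In sorted cells measured in bulk, fewer cells with H3.3 at a gene and less H3.3 per cell cannot be told apart. Fibroblast markers had H3.3 peaks at 10 of 10 genes in D0 (61.9% of all genes) and in MEF (53.4%), and at 4 of 10 in iPSCs (61.3%) and in ESD3 (52.2%). Pluripotency markers had them at 3 of 10 in D0 and at 10 of 10 in iPSCs and in ESD3. Hematopoietic markers had H3.3 peaks at 7 of 10 genes in cKit- (31.9% of all genes), 6 of 10 in cKit+ (33.3%) and 5 of 10 in MEF (53.4%). Kit, the gene of the sorted receptor, had no H3.3 peak in cKit+, cKit- or MEF, and summed scores of 6.12 in D0, 43.0 in D4, 46.65 in iPSCs and 97.2 in ESD3.

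A set of 4 stretches shows sequence at Thy1, the sorted gene, and at the starts of 3 further members whose sums differed widely between libraries. The first is the part of Thy1 intron 2 that was under an H3.3 peak in D0, D3, D6T+ and D9T+ at once (mm9, chr9:43854386-43854549, + strand). The other 3 are the 250 bases before the RefSeq gene starts of Cd44, Icam1 and Pdgfra (promoter table of GRCm38.p6), which each matched mm9 exactly at chr2:102741823-102742072 (- strand), chr9:20820134-20820383 (+ strand) and chr5:75548026-75548275 (+ strand). All are written 5′ to 3′ on the gene's strand, and capitals mark matches to GGGNGGG or its reverse complement CCCNCCC.
Thy1 intron 2: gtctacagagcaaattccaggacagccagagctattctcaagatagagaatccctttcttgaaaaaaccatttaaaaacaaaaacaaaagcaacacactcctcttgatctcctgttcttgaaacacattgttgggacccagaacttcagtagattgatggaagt
Cd44 promoter: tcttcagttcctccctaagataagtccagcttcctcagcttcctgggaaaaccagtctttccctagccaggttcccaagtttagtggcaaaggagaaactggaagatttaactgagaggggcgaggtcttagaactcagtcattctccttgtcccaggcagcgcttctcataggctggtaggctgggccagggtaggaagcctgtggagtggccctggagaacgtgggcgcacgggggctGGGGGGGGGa
Icam1 promoter: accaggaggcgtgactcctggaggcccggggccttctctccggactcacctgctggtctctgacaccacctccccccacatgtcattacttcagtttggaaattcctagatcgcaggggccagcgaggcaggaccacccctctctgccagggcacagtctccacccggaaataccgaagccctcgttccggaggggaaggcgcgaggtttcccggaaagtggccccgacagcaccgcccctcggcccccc
Pdgfra promoter: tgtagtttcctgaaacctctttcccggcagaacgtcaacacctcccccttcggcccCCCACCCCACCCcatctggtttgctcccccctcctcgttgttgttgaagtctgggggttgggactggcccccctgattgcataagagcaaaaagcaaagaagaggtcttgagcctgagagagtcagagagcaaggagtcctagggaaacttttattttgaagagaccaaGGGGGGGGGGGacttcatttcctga
The Thy1 stretch was also inside an H3.3 peak in MEF and D4, and in no other H3.3 library. The Cd44 promoter was overlapped, in part or in full, by an H3.3 peak in 9 of 16 libraries (D0, D3, D6T-, D9T-, D9T+, D12S-, D16S-, MEF and D4). The Icam1 promoter overlapped one in iPSCs and D4 only, and the Pdgfra promoter in D4 only, while an H3K4me3 peak overlapped at least part of the Icam1 promoter in 7 of 7 libraries and of the Pdgfra promoter in 5 of 7 (D0, D3, D6T-, D9T- and D12S+). Of all promoters in the table, 44.8% held GGGNGGG or CCCNCCC in the same 250 bases. Neither strand of the Thy1 stretch or of these 3 promoters held TGANTCA (6.75% of all promoters), ATGCAAAT (1.60%), CCAAT (33.8%) or TATAAA (12.4%), and CANNTG (66.2%) occurred 2 times in the Icam1 promoter, 1 time in the Pdgfra promoter and in neither of the others. The RefSeq table held a promoter for 5 of the 9 genes, all but Thy1, Fut9, Ly6a and Pdgfrb.

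Thy1 (ENSMUSG00000032011.4, chr9:43851467-43856662, + strand, 5.20 kb) separated the fractions sorted on its own protein. The summed H3.3 score was 41.5 in D6T+ (3 peaks, 2.83 kb, interval 33.3 to 51.0) and 101.3 in D9T+ (3 peaks, 6.39 kb, interval 88.6 to 115.4). D6T- and D9T- had no called peak in the window, although the D6T- list was longer than the D6T+ list (82764 against 60705 peaks). The nearest peaks were small and lay 2.67 kb from the gene in D6T- (score 9.61) and 1.91 kb from it in D9T- (score 5.87), upstream of the start. With flanks of 5 kb, chosen after the data were seen, the sums were 79.0 in D6T+ against 9.61 in D6T- and 108.0 in D9T+ against 11.9 in D9T-.

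Before the sort, Thy1 had a sum of 100.6 in D0 (interval 89.0 to 113.3) and 19.7 in D3. After the SSEA-1 sort it had 54.0 in D12S- and 6.83 in D16S-, and no called peak in D12S+, D16S+, iPSCs or ESD3, where the nearest peak was 18.8 kb (iPSCs) to 34.5 kb (D12S+) away. In transdifferentiation the sum was 84.4 in MEF and 205.2 in D4, where 1 peak of 13.8 kb ran over the whole gene, and neither cKit fraction had a called peak. Thus an H3.3 peak touched the Thy1 window in all 4 fractions that were Thy-1+ or SSEA-1- and in none of their 4 partners. Pdgfrb was the only other member with this pattern, which 0.153% of all genes (34 of 22238) showed. At Thy1 the pattern depended on the 1-kb flanks. With flanks of 2 kb D9T- had a sum of 5.87, and the D16S- peak began 6.03 kb from the start of the 5.20-kb gene.

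**Figure D1:**
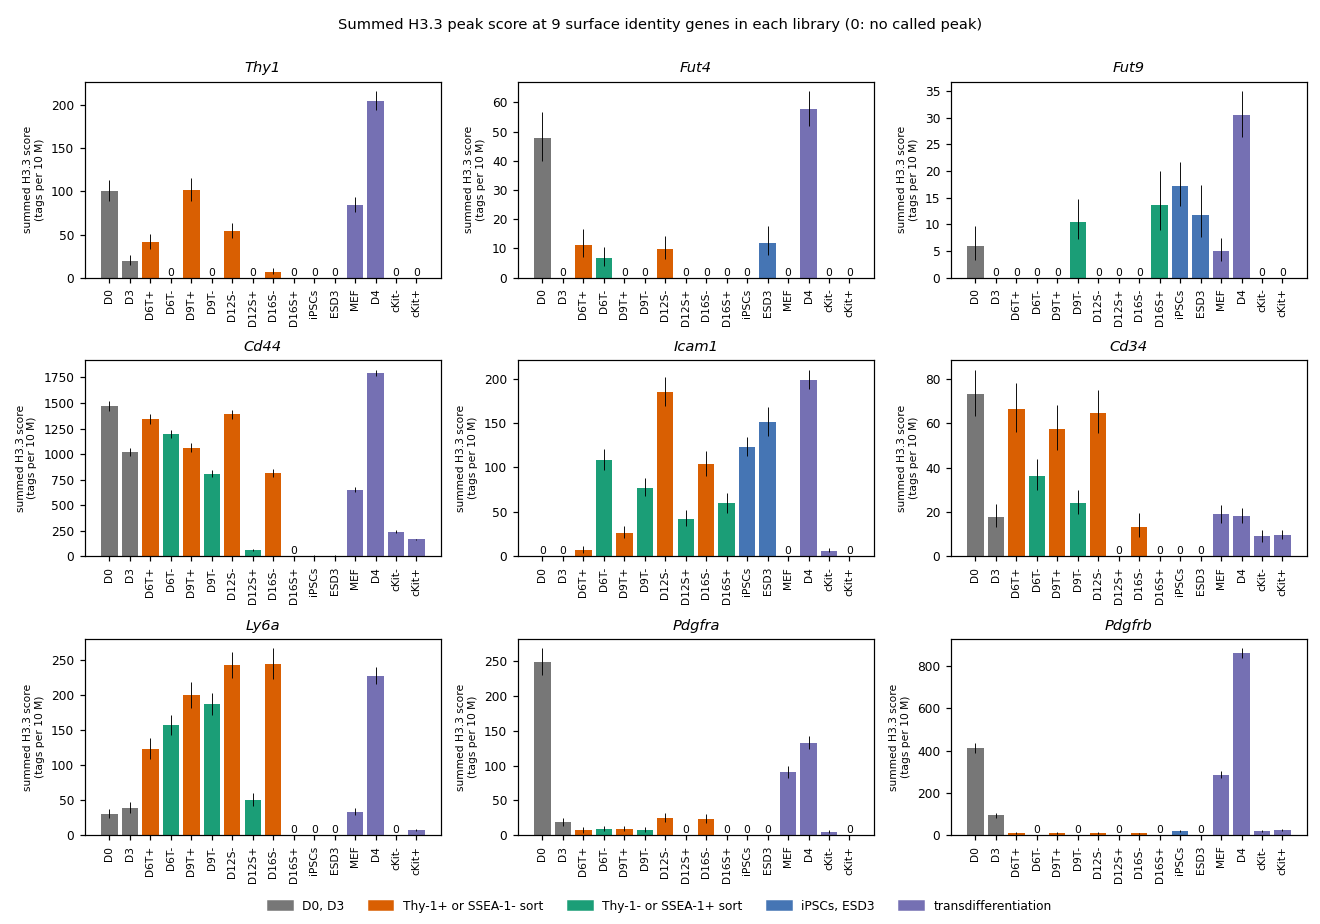
Summed H3.3 score (tags per 10 M, linear axes from 0, a scale of its own for each gene) of the 9 genes in 16 libraries, 1 bar per library, with 95% Poisson intervals of the tags and 0 for no called peak. Thy1 bars are present in D6T+ (41.5), D9T+ (101.3), D12S- (54.0) and D16S- (6.83) and absent in the partner of each, while Cd44 is at 62.4 or below in D12S+, D16S+, iPSCs and ESD3 and at 809 or above in the other reprogramming libraries.

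The position of the Thy1 peaks differed between libraries that had them. In D0 the main peak began in intron 2 and ran 8.16 kb from the gene start, past the end of the gene. In D9T+ a peak of 3.81 kb lay upstream and ended at -0.108 kb from the start, a 0.500-kb peak lay mostly over intron 2 and a 2.08-kb peak covered the end of the gene. The D12S- peak (3.91 kb) crossed the start from upstream, with 2.64 kb of it outside the window, so the part inside the window had a score of 17.6. The D16S- peak was 0.500 kb long and lay 3′ of the gene. Counted inside the window alone, the Thy1 sums were 28.8 in D6T+ and 50.1 in D9T+.

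H3K4me3 at Thy1 was highest in D0. Its sum was 199.9 in D0, 56.6 in D3, 19.5 in D6T-, 22.0 in D12S+ and 23.0 in iPSCs, with no called peak in D9T- and D16S-. In the 5 libraries with a peak, 1 peak covered the gene start. H3K36me3 was called at Thy1 in D0 alone (22.6, 2 peaks, 1.89 kb). Thus iPSCs had H3K4me3 at the Thy1 start with no called H3.3 or H3K36me3 peak in its window.

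**Figure D2:**
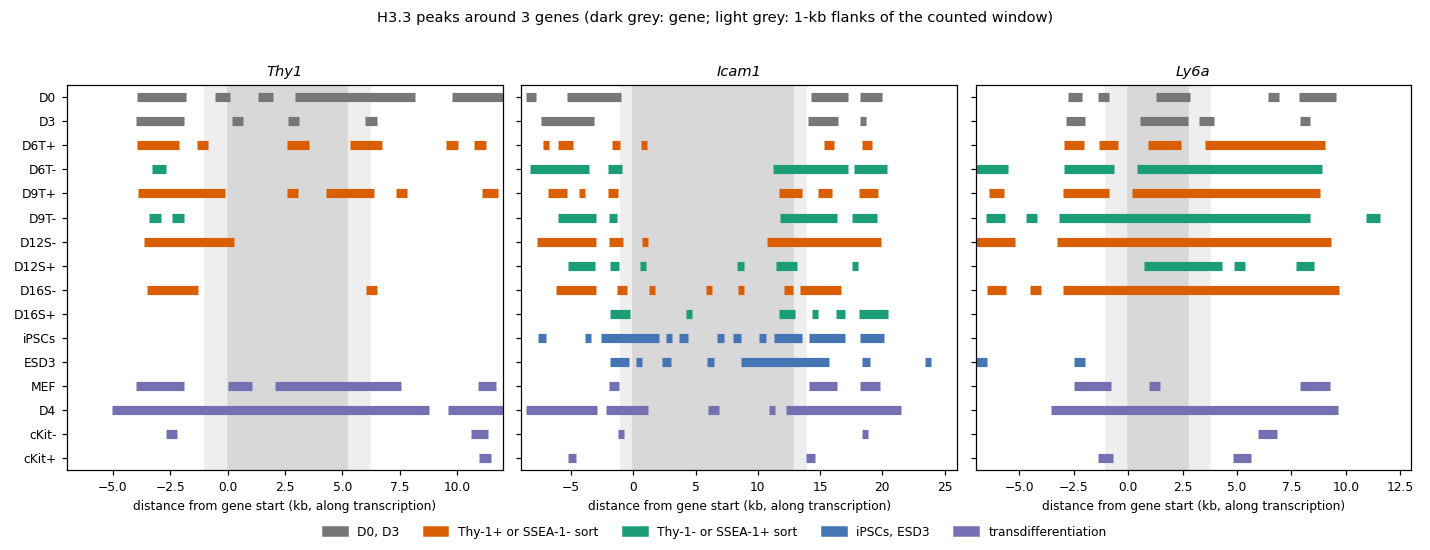
H3.3 peaks (horizontal bars, drawn to scale) around Thy1, Icam1 and Ly6a in 16 libraries, by distance from the gene start in kb along transcription, with the gene in dark grey and the 1-kb flanks in light grey. At Thy1 the D6T- and D9T- peaks stop upstream of the window, at Icam1 the D0, D3, MEF and cKit+ peaks lie just outside it, and at Ly6a a peak of 11.5 to 13.2 kb spans the gene in D9T-, D12S-, D16S- and D4.

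The SSEA-1-making enzymes had H3.3 peaks in a minority of the libraries. Fut4 (ENSMUSG00000049307.5, chr9:14552903-14556566, - strand, 3.66 kb), which makes Lewis X in many tissues, had H3.3 peaks in 6 of 16 libraries. The sums were 47.7 in D0, 11.2 in D6T+, 6.74 in D6T-, 9.70 in D12S-, 12.0 in ESD3 and 57.7 in D4. None was called in D3, D9T+, D9T-, D12S+, D16S-, D16S+, iPSCs, MEF, cKit- or cKit+. Of the SSEA-1- libraries, D12S- had 1 peak of 0.801 kb upstream of the gene and D16S- had none, as in both SSEA-1+ libraries. The fibroblast libraries D0 and MEF also differed. H3K4me3 covered the Fut4 start in 7 of 7 libraries, with a sum of 102.3 in D0, 62.7 in D3, 60.5 in D6T- and 41.9 in D9T-. It was 10.3 in D12S+, 8.22 in D16S+ and 20.8 in iPSCs. Of the 7 values, those of D12S+ and D16S+ were the lowest, in the libraries with the smallest shares of H3K4me3 tags in peaks. Fut4 ranked 11847 of the 15635 genes with an H3K4me3 peak in D0, 13976 of 14688 in D12S+ and 10548 of 11497 in D16S+.

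Fut9 (ENSMUSG00000055373.7, chr4:25536479-25727391, - strand, 190.9 kb), the enzyme that makes Lewis X in brain and kidney, is the longest of the 9 genes, yet its H3.3 peaks covered at most 1.27% of its window and its H3K4me3 peaks at most 2.58%. Its H3.3 sums were 5.94 in D0, 10.5 in D9T-, 13.6 in D16S+, 17.25 in iPSCs, 11.8 in ESD3, 4.93 in MEF and 30.4 in D4, and the other 9 libraries had none. No peak was near the gene start: the nearest lay 71.6 kb inside the gene (iPSCs), and an intron peak about 88 kb from the start was called in both iPSCs (87.6 to 88.3 kb) and ESD3 (87.5 to 88.2 kb). H3K4me3 at Fut9 covered the gene start with sums of 69.7 in D0, 66.2 in D3, 135.7 in D6T-, 127.0 in D9T-. D12S+ had 106.8 and iPSCs 57.8, and D16S+ had no called peak. Neither Fut4 nor Fut9 had an H3K36me3 peak in any of the 7 libraries, where 23.5% (D12S+) to 50.3% (D9T-) of all genes had one.

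The other genes of the Lewis X pathway are given beside all genes, of which 61.9% had an H3.3 peak in D0, 50.3% in D12S+, 43.5% in D16S+ and 61.3% in iPSCs. Sums named for these and the further lists are over whole genes and not per length. Of 8 other fucosyltransferase genes, 6 had an H3.3 peak in D0, 5 in D12S+, 5 in D16S+ and 7 in iPSCs, and Fut11, a member of the family that modifies proteins in the secretory pathway, had the highest sum of them in both D0 (172.7) and iPSCs (129.4). Of 12 genes that make the lactosamine chain or supply GDP-fucose, 11 had a peak in D0, 7 in D12S+, 9 in D16S+ and 11 in iPSCs. B4galt1, a galactosyltransferase that builds lactosamine, had a sum of 566.8 in D0 and 243.55 in iPSCs, the highest of the 12 in both. In D12S- against D12S+, 10 of the 12 were at least 2-fold higher (50.8% of all genes) and 0 lower (2.21%), with a median log2 difference of 1.81 beside 1.05 over all genes. In D16S- against D16S+ the counts were 7 (40.4%) and 1 (5.45%), with a median of 1.17 beside 0.14. The SSEA-1+ libraries had smaller shares of tags in peaks, and the part of that in these counts was not tested. The counts were not repeated with scores scaled by each library's total score in peaks.

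Cd44 (ENSMUSG00000005087.10, chr2:102651298-102741822, - strand, 90.5 kb), the receptor for hyaluronan, carried the most H3.3 of the 9 genes per kb of window in D0, with 15.0 tags per 10 M per kb beside 9.63 at Thy1, 9.20 at Pdgfrb and 0.0308 (Fut9) to 5.22 (Ly6a) at the other members with a peak. The sum was 1471 in D0, 1020 in D3, 1342 in D6T+, 1200 in D6T-, 1063 in D9T+ and 809 in D9T-. It was 1389 in D12S- and 819 in D16S-, against 62.4 in D12S+ and no called peak in D16S+. Thus the Thy-1 fractions differed by 1.12-fold (day 6) and 1.31-fold (day 9), while D12S- was 22.3-fold above D12S+.

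In the pluripotent libraries Cd44 had 1 peak of 0.500 kb each, with a sum of 5.59 in iPSCs and 6.24 in ESD3, and D0 was 263-fold above iPSCs. That ratio depended on the 1-kb flanks. With flanks of 2 kb, chosen after the data were seen, the sums were 1479 in D0, 12.5 in D16S+, 20.5 in iPSCs and 18.0 in ESD3. Cd44 peaks covered 91.5% of its window in D0, 90.3% in D12S-, 4.56% in D12S+ and 0.540% in iPSCs. Among all 22238 genes its sum ranked 47 in D0, 10 in D6T+, 54 in D6T-, 56 in D12S-, 2959 in D12S+ and 13038 in iPSCs. In transdifferentiation the sum was 652 in MEF, 1794 in D4, 242 in cKit- and 165 in cKit+. Cd44 ranked 28 in cKit- and 24 in cKit+, the lists with the fewest peaks. These ranks are of sums not corrected for gene length, and the Cd44 window was 92.5 kb. The sums came from 20 peaks in cKit- and 21 in cKit+. Those peaks were together 2.19-fold and 2.15-fold over input, near the minimum of 2 for a called H3.3 peak. H3K36me3 at Cd44 was 823 in D0, 860 in D3, 310 in D6T-, and 1749 in D9T-. It was 82.6 in D12S+ and 15.2 in D16S+, with none in iPSCs. H3K4me3 was between 419 (D3) and 704 (D6T-) in D0 to D9T-, and 74.1, 8.54 and 17.8 in D12S+, D16S+ and iPSCs. The sums of all 3 features were therefore lower in D12S+, D16S+ and iPSCs than in D0 to D9T-. For H3K36me3 the share of tags in peaks was also lower, at 1.07% in D12S+ against 42.4% in D9T-. Cd44 ranked 960 of the 11050 genes with an H3K36me3 peak in D0 and 262 of 11192 in D9T-. It ranked 68 of 5235 in D12S+ and 3481 of 5715 in D16S+, so its rank did not fall in D12S+. For H3K4me3 Cd44 ranked 746 in D0, 665 in D9T-, 5053 in D12S+ and 13926 in iPSCs.

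Icam1 (ENSMUSG00000037405.7, chr9:20820404-20833241, + strand, 12.8 kb), an adhesion receptor for leukocyte integrins, was the 1 member without an H3.3 peak in D0. No H3.3 peak touched its window in D3, MEF or cKit+ either. The sums were 6.98 in D6T+, 108.7 in D6T-, 26.5 in D9T+ and 77.4 in D9T-, so the Thy-1- fraction was higher on both days. The day 9 difference on the log2(sum + 5) scale was -1.39 in D9T+ minus D9T-, but -0.32 for scores clipped to the window and 2.66 with peaks kept only from 4-fold over input upwards. In the SSEA-1 sort the order was the other way round, with 184.65 in D12S-, 42.2 in D12S+, 103.9 in D16S- and 59.4 in D16S+. On the log2(sum + 5) scale D12S- minus D12S+ was 2.01 and D16S- minus D16S+ was 0.76, but these values were 0.51 and 0.07 for scores clipped to the window and 0.44 and -0.50 for scores scaled by each library's total score in peaks. iPSCs had 122.8 and ESD3 151.0. In the remaining transdifferentiation libraries the sum was 198.9 in D4 and 6.40 in cKit-.

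Much of the Icam1 signal lay at its borders, where Icam4 starts 0.576 kb and Icam5 3.24 kb beyond its end. In D6T- a peak of 6.02 kb began inside Icam1 and ran past Icam4 into Icam5, and in D12S- a peak of 9.17 kb did so. In D0, the nearest peak (4.29 kb, score 57.1) ended 1.01 kb before the gene, just outside the window, and in D3, MEF and cKit+ the nearest peaks were 1.21, 1.14 and 1.00 kb away. With flanks of 2 kb, chosen after the data were seen, D0 had a sum of 104.8, D3 32.1, MEF 42.5, cKit+ 9.15 and iPSCs 164.6. The absence of H3.3 from the window in D0 thus holds for the gene and its 1-kb flanks and not for its surroundings. Clipped to the window, the sums were 41.7 in D6T-, 34.2 in D9T-, 62.25 (D12S-) and 42.2 (D12S+) at day 12, 103.2 in iPSCs and 110.5 in ESD3, and the pluripotent libraries were then the highest, with 55.1% (iPSCs) and 51.6% (ESD3) of the window covered against 25.6% in D12S-.

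At the Icam1 start, H3K4me3 was called in 7 of 7 libraries, in peaks with a score of 103.5 in D0, 82.4 in D3, 115.8 in D6T-, and 100.2 in D9T-, and of 41.8 (D12S+), 21.8 (D16S+) and 80.8 (iPSCs) later. D0 therefore had H3K4me3 over the start and no H3.3 peak over it. H3K36me3 at Icam1 was 28.9 in D3, 6.11 in D6T-, 48.9 in D9T- and 15.0 in iPSCs, and was not called in D0, D12S+ and D16S+.

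Cd34 (ENSMUSG00000016494.3, chr1:196765015-196787486, + strand, 22.5 kb), a sialomucin of blood progenitors, endothelium and fibroblasts, had modest sums throughout. It had 73.3 in D0, 17.8 in D3, 66.55 in D6T+, 36.5 in D6T-, 57.65 in D9T+ and 24.1 in D9T-. It had 64.8 in D12S- and 13.4 in D16S-, and no called peak in D12S+, D16S+, iPSCs or ESD3. The Thy-1+ fraction was 1.83-fold (day 6) and 2.39-fold (day 9) above the Thy-1- fraction, although without flanks the day 6 log2 difference was -1.08. In transdifferentiation Cd34 had 19.0 in MEF, 18.2 in D4, 9.02 in cKit- and 9.64 in cKit+. The share of tags in peaks was 7.64% in MEF and 1.65% in cKit+. Cd34 ranked 7183 of the 11866 genes with a peak in MEF and 3786 of 7409 in cKit+. H3K4me3 was 131.3 in D0, 47.9 in D3, 113.8 in D6T-, and 64.9 in D9T-. It was 10.5 in D12S+ and absent from the lists of D16S+ and iPSCs. H3K36me3 was highest in D9T- (142.7, 7.70 kb), with 13.4 in D0 and 6.50 in D6T- and no called peak in the other 4 libraries. D9T- was also the H3K36me3 library with the largest share of its tags in peaks, 42.4%.

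Ly6a (ENSMUSG00000075602.4, chr15:74825308-74828064, - strand, 2.76 kb) encodes Sca-1, a glycolipid-anchored marker of blood stem cells and of many mesenchymal cells. Its H3.3 sums were 30.05 in D0, 38.3 in D3, 122.4 in D6T+, 156.4 in D6T-, 199.7 in D9T+ and 186.6 in D9T-. They were 242.1 in D12S- and 244.4 in D16S-, against 50.0 in D12S+ and none in D16S+, iPSCs and ESD3. The whole-peak sum of Ly6a was thus higher at days 6 and 9 than in D0 in both Thy-1 fractions. These fractions differed from each other by 0.783-fold (D6T+ over D6T-) and 1.07-fold (D9T+ over D9T-). In transdifferentiation it had 32.9 in MEF, 227.7 in D4, 7.08 in cKit+ and none in cKit-.

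The higher Ly6a sums came mostly from breadth. The score per covered kb was also higher in D6T+, D9T+, D9T-, D12S- and D16S- than in D0, and in D6T- it was close to D0. The covered length was 2.06 kb in D0 and 12.6 kb in D12S-, where 1 peak ran from -3.26 kb to 9.31 kb relative to the gene start, and 7.81 kb of it lay outside the window. Counted inside the window alone, the sums were 24.8 in D0, 35.5 in D3, 36.3 in D6T+, 52.8 in D6T-, 68.3 in D9T+ and 76.9 in D9T-. D6T+ was then close to D3. Of its whole-peak sum, 84.5 came from a 5.49-kb peak with 5.27 kb outside the window. At day 12 they were 91.6 in D12S- and 42.4 in D12S+, and D16S- had 91.7. H3K4me3 was also low in D0 and higher on days 6 and 9, with 8.90 in D0, 78.7 in D3, 188.0 in D6T-, and 169.9 in D9T-, then 34.8 in D12S+ and none in D16S+ and iPSCs. H3K36me3 was 8.75 in D0, 10.9 in D3 and 23.2 in D9T-. In the Ly6 family of 16 further genes, 5 had an H3.3 peak in D0 (61.9% of all genes), 5 in D6T- (60.7%), 7 in D12S- (63.5%) and 5 in D12S+ (50.3%). The highest sum among them was at Ly6g6c, with 451.3 in D0, 25.4 in D3 and 158.9 in iPSCs.

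**Figure D3:**
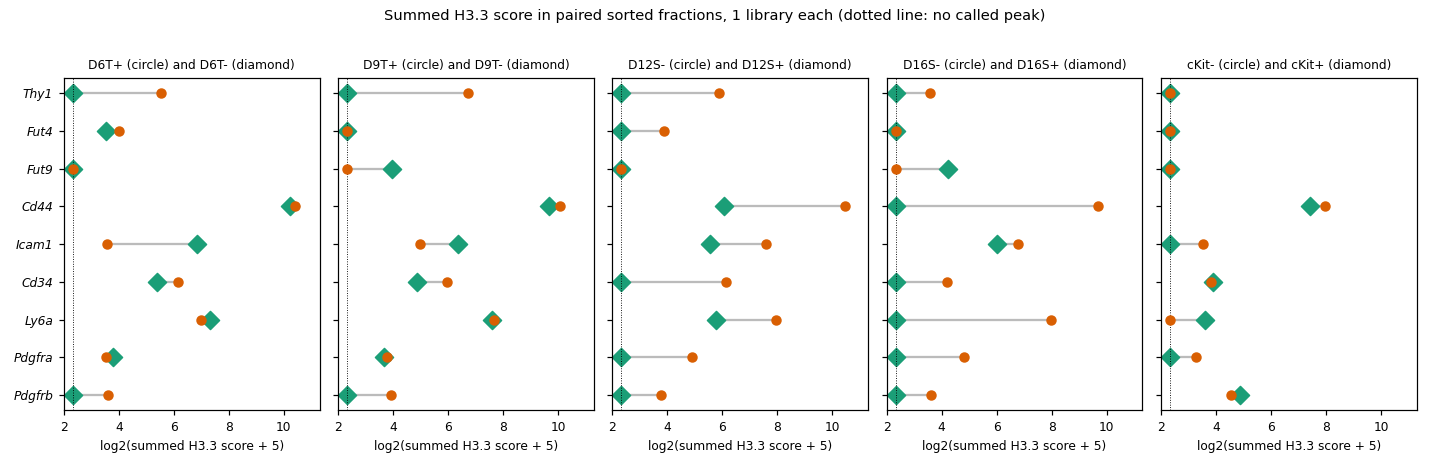
Summed H3.3 score of the 9 genes as log2(sum + 5) in the fractions sorted on Thy-1, SSEA-1 and cKit, 1 library per point, with circles for the Thy-1+, SSEA-1- and cKit- fractions and diamonds for their partners. Cd44 and Ly6a points lie close together in both Thy-1 sorts and far apart in both SSEA-1 sorts, and the Icam1 circle lies left of the diamond in the Thy-1 sorts and right of it in the SSEA-1 sorts.

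Pdgfra and Pdgfrb encode the receptors for platelet-derived growth factors, tyrosine kinases that mesenchymal cells use to grow and migrate. Pdgfra (ENSMUSG00000029231.9, chr5:75548316-75594229, + strand, 45.9 kb) had an H3.3 sum of 249.3 in D0 (13 peaks) and 18.0 in D3 (3 peaks). It had 1 peak in each of D6T+ (6.52), D6T- (8.76), D9T+ (8.68), D9T- (7.72) and D12S- (24.7), and 22.9 in D16S-. It had none in D12S+, D16S+, iPSCs, ESD3 and cKit+, and 90.2 in MEF, 132.5 in D4 and 4.65 in cKit-. Pdgfra was thus 13.8-fold lower in D3 than in D0, and both Thy-1 fractions on both days had 1 peak of 0.65 kb or less.

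Pdgfrb (ENSMUSG00000024620.5, chr18:61204804-61244715, + strand, 39.9 kb) had a sum of 411.0 in D0 and 93.7 in D3. It had 1 short peak each in the Thy-1+ libraries (7.22 on day 6 and 10.2 on day 9) and in the SSEA-1- libraries (8.78 on day 12 and 7.07 on day 16), and none in D6T-, D9T-, D12S+, D16S+ and ESD3. iPSCs had 17.45, of which 5.65 lay inside the window. In transdifferentiation it had 285.25 in MEF, 861.2 in D4, 18.5 in cKit- and 24.0 in cKit+. Thus Pdgfrb shared the pattern of Thy1 across the sorted fractions, but with sums of 7.07 to 10.2 that each rested on 1 peak of 0.500 to 0.754 kb.

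H3K36me3 covered most of both receptor genes in D0. Its sum was 1545 at Pdgfra (rank 188 of all genes, 1 peak of 46.5 kb) and 919 at Pdgfrb (rank 757), over 87.2% and 74.8% of their windows. At Pdgfra the sum was 96.8 in D3, 13.2 in D9T- and 17.4 in D16S+, with no called peak in D6T-, D12S+ and iPSCs. At Pdgfrb it was 240.8 in D3, 10.2 in D6T-, 29.0 in D9T- and 19.2 in iPSCs, with none in D12S+ and D16S+. H3K4me3 stayed on the lists in 7 of 7 libraries at both genes, from 761 (D0) to 37.3 (D16S+) at Pdgfra and from 234.1 (D0) to 7.59 (D16S+) at Pdgfrb. Of 8 PDGF ligand and related receptor genes, 6 had an H3.3 peak in D0 (61.9% of all genes), 5 in D12S+ (50.3%), 3 in D16S+ (43.5%) and 6 in iPSCs (61.3%). Pdgfc, a ligand of the Pdgfra receptor, had a sum of 524.7 in D0 and 16.0 in iPSCs, whereas Pdgfa, the other main ligand of that receptor, had 189.99 in D0 and 198.8 in iPSCs.

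**Figure D4:**
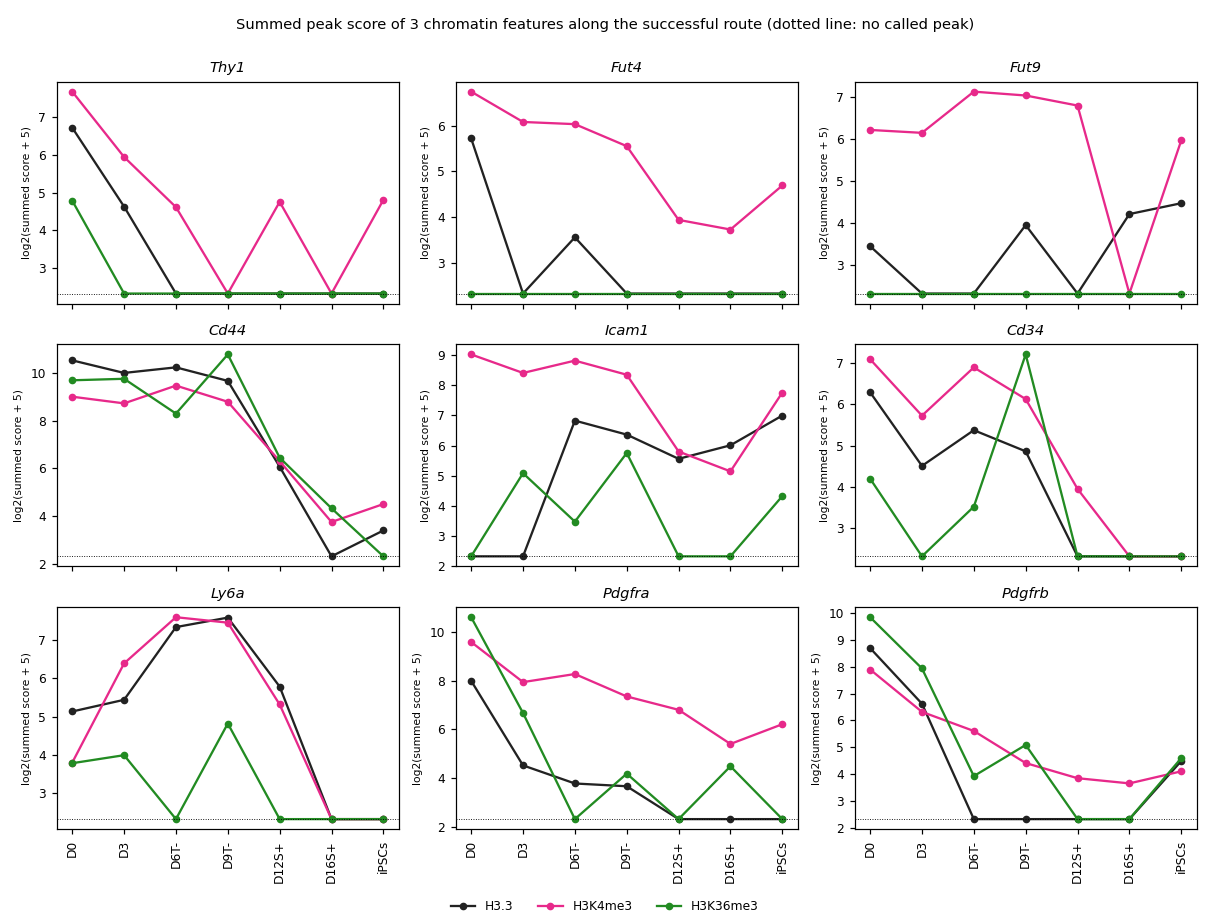
Summed peak score as log2(sum + 5) of H3.3, H3K4me3 and H3K36me3 at the 9 genes in D0, D3, D6T-, D9T-, D12S+, D16S+ and iPSCs, 1 library per point, with the dotted line at no called peak. H3K36me3 at Pdgfra and Pdgfrb is at its highest in D0 (1545 and 919), the sums of all 3 features at Cd44 are higher in D0 to D9T- than in later libraries, and Fut4 and Fut9 have no H3K36me3 in any library.

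The 9 members held a peak at 8 genes in D0 (61.9% of all genes), 6 in D3 (57.4%), 8 in D6T+ (53.2%) and 6 in D6T- (60.7%). At day 9 there were 7 in D9T+ (55.0%) and 6 in D9T- (58.4%). The SSEA-1- libraries held peaks at 8 (D12S-, 63.5%) and 7 (D16S-, 56.7%), and the SSEA-1+ libraries at 3 (D12S+, 50.3%) and 2 (D16S+, 43.5%). Both iPSCs (61.3%) and ESD3 (52.2%) had 4. MEF had 7 (53.4%), D4 9 (72.1%), cKit- 5 (31.9%) and cKit+ 4 (33.3%). The lowest counts were thus those of the SSEA-1+ libraries. For H3K4me3 the count was 9 in D0 (70.3%), D3 (68.3%), D6T- (69.8%) and D12S+ (66.0%), 8 in D9T- (68.7%), 5 in D16S+ (51.7%) and 7 in iPSCs (69.1%). H3K36me3 covered 6 members in D0 (49.7%) and D9T- (50.3%), 5 in D3 (44.6%), 4 in D6T- (38.9%), 1 in D12S+ (23.5%), and 2 in D16S+ (25.7%) and iPSCs (34.9%).

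Differences over the 9 genes were read against all genes. In D6T+ against D6T-, 2 members were at least 2-fold higher on the log2(sum + 5) scale (Thy1 and Pdgfrb, 4.69% of all genes) and 1 was lower (Icam1, 31.6%). In D9T+ against D9T-, 3 were higher (Thy1, Cd34 and Pdgfrb, 7.06%) and 2 were lower (Fut9 and Icam1, 15.6%). Thy1 and Pdgfrb thus stood on the Thy-1+ side in both sorts. With the 1-kb flanks they were the 2 members with a peak in both Thy-1+ libraries and in neither Thy-1- library, as at 0.666% of all genes. With scores scaled by each library's total score in peaks, the day 6 counts were 3 higher (8.29% of all genes) and 1 lower (16.6%), and the day 9 counts were 3 higher (8.74%) and 2 lower (12.2%). The median log2 difference of the 9 members was 0.16 on day 6 beside -0.17 over all genes, and 0.10 on day 9 beside 0.00.

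In D12S- against D12S+, 8 members were higher (every member but Fut9, 50.8%) and 0 were lower (2.21%), with a median of 2.17 beside 1.05 over all genes. In D16S- against D16S+, 6 were higher (Thy1, Cd44, Cd34, Ly6a, Pdgfra and Pdgfrb, 40.4%) and 1 was lower (Fut9, 5.45%), with a median of 1.27 beside 0.14. A total of 4 members (Thy1, Cd34, Pdgfra and Pdgfrb) had an H3.3 peak in both SSEA-1- libraries and in neither SSEA-1+ library, as 6.30% of all genes did. Under the same scaling, 6 members were higher (20.5%) and 0 lower (6.96%) in D12S-, and 6 were higher (26.4%) and 1 lower (10.9%) in D16S-. Icam1 and Ly6a were then no longer at least 2-fold higher in D12S-.

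In cKit- against cKit+, 1 member was higher (Icam1, 12.2%) and 1 was lower (Ly6a, 7.09%), each on 1 peak with a score of 6.40 or 7.08. Scaled by total score in peaks, 2 were higher (Icam1 and Pdgfra, 12.3%) and 1 was lower (14.6%). In D0 against iPSCs, 7 members were higher (28.1%) and 2 were lower (Fut9 and Icam1, 16.2%), with a median of 3.97 beside 0.00. Scaled by total score in peaks the counts were the same, with 21.4% and 19.1% of all genes. A peak in D0 and in neither iPSCs nor ESD3 was found at 4 members (Thy1, Cd34, Ly6a and Pdgfra, 7.11% of all genes), and the opposite at 1 (Icam1, 4.96%). This comparison shares D0 with the next. D3 was at least 2-fold below D0 at 6 members (24.5% of all genes) and above it at 0 (5.99%). D4 was at least 2-fold above MEF at 7 members, but 67.8% of all genes were, and below MEF at 0 (0.850%), so the D4 values at the members were close to what the library showed at large.

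Other surface genes were counted in the same way. Of 18 genes for surface proteins of mesenchymal cells, 0 were at least 2-fold higher (4.69% of all genes) and 6 lower (31.6%) in D6T+ than in D6T-, and 2 were higher (7.06%) and 4 lower (15.6%) in D9T+ than in D9T-. The Thy-1 counts of these genes were thus near those of all genes. In D12S- against D12S+, 16 were higher (50.8%) and 0 lower (2.21%), without scaling by total score in peaks. Itgav, an integrin subunit, had the highest D0 sum of them (684.9), and Cd9, a tetraspanin also found on pluripotent cells, the highest iPSC sum (413.5). Of the 10 fibroblast markers, by contrast, 4 were higher (4.69% of all genes) and 1 lower (31.6%) in D6T+ than in D6T-. In D9T+ against D9T-, 5 of these 10 were higher (7.06%) and 1 lower (15.6%). Of 13 surface genes of pluripotent and epithelial cells, 1 was higher (4.69% of all genes) and 9 were lower (31.6%) in D6T+ than in D6T-, with a median of -1.46 beside -0.17 over all genes. In D9T+ against D9T-, 0 of the 13 were higher (7.06%) and 7 lower (15.6%). In D12S- against D12S+, however, 8 were higher (50.8%) and 2 lower (2.21%). In D16S- against D16S+, 4 were higher (40.4%) and 4 lower (5.45%). Cdh1, the epithelial cadherin, had a sum of 42.7 in D0, 30.3 in D6T+, 71.0 in D6T- and 755.1 in iPSCs. Of 16 blood surface genes, 4 were higher (12.2% of all genes) and 0 lower (7.09%) in cKit- than in cKit+. Csf1r, a macrophage receptor whose gene starts 20.5 kb from Pdgfrb, led them in both D0 (113.9) and cKit+ (9.59).

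The genes whose H3.3 sums followed each member most closely were found by Pearson's r of log2(sum + 5) over the 16 libraries, among 13034 genes with a peak in at least 8 of them. The libraries share the same cells of origin and differ in depth, so r is a description. Thy1 was closest to Tnxb (r = 0.95), Mrc2 (0.95) and Recql (0.94). Cd44 was closest to Pcdh7 (0.98), Akap13 (0.97) and Tm4sf1 (0.97), and Ly6a to Plcl1 (0.96), Hrh1 (0.95) and Nupr1 (0.95). Icam1 was closest to Smagp (0.95), B4galnt4 (0.93) and F11r (0.93), the last a junctional adhesion molecule. Cd34 was closest to Apbb1ip (0.92), the collagen gene Col3a1 (0.92) and C230081A13Rik (0.91). Pdgfra was closest to Mfap4 (0.93), ORF63 (0.93) and the growth factor gene Fgf2 (0.93), and Pdgfrb to Rnf144a (0.95), Wisp1 (0.94) and Bicc1 (0.94). None of these genes was another member.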

How the data were processed

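Per the study's methods, reads were aligned to mm9 with STAR, reads with more than 2 mismatches or more than 1 mapping place were removed, and peaks were called with HOMER. Tool versions are not given in the sources used here. Per the file headers, the authors ran findPeaks in histone style on each library against an input, without pooling. The deposited score is a signal, the normalised tag count scaled to 10 M tags, with no length or input correction. A further deposited column is the ratio of tags to scaled input tags (the fold over input), with a minimum of 2 for H3.3 and 4 for the other marks. The authors' p-value column, from the caller's Poisson test with a limit of 0.0001 and no adjustment, was not used here. Repeats mapped in several places are therefore absent, and a gene without a called peak can still hold signal below the caller's limits.

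Here, whole peaks sharing 1 bp or more with a window of gene start -1 kb to gene end +1 kb (GENCODE vM1, longest entry per symbol, 22238 genes) were summed with Python 3.11.15, numpy 2.4.6, pandas 2.3.3 and scipy 1.17.1 and drawn with matplotlib 3.10.9. The sums were checked by direct comparison of genes with peaks, and the fold calls on tags redrawn from the D0 H3.3 peaks. That check did not cover peak calling, differences in depth between libraries or changes at low sums. With 1 library per group no test was run. Genes at least 2-fold apart on log2(sum + 5) were counted. Of 46 samples, 16 inputs were not analysed on their own. All 9 members were named. Further genes were named by rule: the 3 most correlated genes of each member with peaks in at least 8 libraries, the gene of each list with the highest sum in D0 and in iPSCs (in cKit+ for blood surface genes), and Kit. Marker genes other than Kit were given as counts. The members and lists were chosen with earlier results of these data known. Alternatives covered clipping, flanks, equal peak numbers, fold over input, input subtraction, scaling, pseudocounts and a filter on low sums.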

Additional observations from a re-analysis of the deposited data

Results flagged for a closer look

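The direction of the H3.3 difference at Icam1 turned between the Thy-1 sorts and the SSEA-1 sorts. On the log2(sum + 5) scale, the fraction taken as unsuccessful minus its partner was -3.25 in D6T+ against D6T- and -1.39 in D9T+ against D9T-, and 2.01 in D12S- against D12S+ and 0.76 in D16S- against D16S+. Each fraction had 1 library, and the difference between the sorts was not tested. In D6T-, D12S- and D16S- part of the sum, and in D9T- all of it, came from a peak that ran on past Icam4 into Icam5. With flanks of 2 kb the 4 values were -2.37, -1.04, 1.74 and 0.51. Clipped to the window they were -1.96, -0.32, 0.51 and 0.07, and scaled by total score in peaks they were -2.55, -1.12, 0.44 and -0.50, so both SSEA-1 differences were then within 2-fold. The day 9 Thy-1 difference was also within 2-fold when clipped, and was 2.66 with peaks kept only from 4-fold over input upwards. The D12S+ and D16S+ lists held fewer peaks than their partners, and the part of that in the result was not tested.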

How the results depend on the processing

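No paired analysis was possible because each group had 1 library, and no replicate could be left out. Apart from wider flanks, the alternatives left 77 counts of members within 1.5 times of the reported count and moved 29, and the flanks of 2 and 5 kb, added after the data were seen, left 20 and moved 4. Why each moved was not tested. Under the alternatives run, members at least 2-fold higher in D12S- than D12S+ numbered 6 to 8 (reported 8), those higher in D0 than iPSCs 6 to 7 (7), and those lower in D12S- stayed at 0. With peaks kept only from 4-fold over input upwards, run for reprogramming only, 5 members were higher in D6T+ than D6T- (reported 2), 6 higher in D9T+ than D9T- (3), 0 lower in D9T+ (2) and 1 lower in D0 than iPSCs (2). With a pseudocount of 20, 1 was higher in D6T+, 1 higher and 1 lower in D9T+, 3 higher (6) and 0 lower (1) in D16S-, 0 higher and 0 lower in cKit- (1 and 1), and 1 lower in D0. A pseudocount of 1, and scaling by total score in peaks, each put 2 higher in cKit- than cKit+. Leaving out genes with a sum below 10 in both libraries left 1 higher in D6T+ and 0 higher and 0 lower in cKit-. Without flanks, 3 were lower in D6T+ (1), and 0 were higher and 0 lower in cKit-. Clipped to the window, 1 was lower in D9T+, and 0 were higher and 0 lower in cKit-. With equal numbers of top-scoring peaks (34062 in reprogramming, 25637 in transdifferentiation), 1 was lower in D9T+, 3 were higher in D16S- and 1 was lower in D0. With the scaled input subtracted, 0 were higher and 0 lower in cKit- and 1 was lower in D0. Flanks of 2 kb gave 0 higher in cKit- and 1 lower in D0, and flanks of 5 kb gave 0 lower in cKit- and 1 lower in D0. Of the log2 differences of at least 2-fold, only Icam1 changed sign, 3 times: to 2.66 in D9T+ minus D9T- with a fold of at least 4, and in cKit- minus cKit+ to -0.31 with flanks of 2 kb and -0.80 with flanks of 5 kb. Differences within 2-fold changed sign 11 times, among them Icam1 in D16S- minus D16S+ to -0.50 with scaling by total score and Cd34 in D6T+ minus D6T- to -1.08 without flanks. Thy1 stayed at least 2-fold higher in D6T+ and in D9T+ under every alternative run. Depth limits the lists: D16S+ had 18.7 M H3.3 tags and cKit+ 91.8 M with 1.65% of them in peaks.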
